A study of Mus musculus with 3 samples.

Results

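The 7 transcription factor genes best known for driving epithelial-mesenchymal transition (EMT), Snai1, Snai2, Snai3, Twist1, Twist2, Zeb1 and Zeb2, were examined in EpH4-PR cells. Members were every non-control probe that the array files name for one of these genes, with the old names of Zeb1 (Zfhx1a) and Zeb2 (Zfhx1b) matched by RefSeq accession. The rule gave 8 probes, 2 of them for Zeb2, of 41174 probes in all. A further probe carries the old name of Zeb2 but has no RefSeq accession, so its values are given beside the others and it is not counted.

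EpH4 is a non-transformed mouse mammary epithelial line, and EpH4-PR cells carry a stably transfected A isoform of the progesterone receptor (PR-A), from clones selected and kept in G418. They were grown in medium with 10% FBS, to a confluence near 75%. RNA was measured on 3 two-colour Agilent whole mouse genome arrays, with EpH4-PR RNA labelled with Cy5 and a commercial mouse reference RNA (Stratagene mouse standard) labelled with Cy3 on every array. There was no dye swap, so a difference in dye response of a probe and a difference in RNA cannot be told apart. EpH4-EV cells, which carry the empty vector, were not analysed here, so each ratio is a level relative to reference RNA and does not measure an effect of PR-A. Nothing in the labels says that the 3 arrays came from separate cultures, so p-values measure only the spread between these samples, which may be technical.

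In EMT, epithelial cells give up their junctions and polarity and take on the shape and motility of mesenchymal cells, as in gastrulation, neural crest migration and tumour invasion. Snail and Zeb proteins are zinc finger repressors that bind E-box motifs in promoters of epithelial genes such as Cdh1, which encodes E-cadherin. Twist proteins are basic helix-loop-helix factors that bind E-boxes as dimers with E proteins.

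Most of the EMT factor probes read below the reference RNA. Snai2, Twist2, Zeb1 and 1 of the 2 Zeb2 probes were lower in EpH4-PR RNA by 1.52 to 3.02 on the log2 scale, Snai1 and the other Zeb2 probe were lower by under 1 log2 unit, and Twist1 and Snai3 were not separated from the reference by the test. Twist1 depended on the scaling, since median centring put it above the reference by 0.80, and the reference signal of Snai3 was within the range of negative control spots. A probe was called when its log2 ratio of Cy5 over Cy3 was at least 1 either way with an adjusted p under 0.05 by limma with Benjamini-Hochberg adjustment over all probes. By this rule 4 of the 8 probes, from 4 of the 7 genes, were lower in EpH4-PR RNA, where 3.83% of all probes were called lower. None of the 8 was called higher, where 2.26% of all probes were, and 6.1% of all probes were called in either direction. By limma's adjusted p alone, with no limit on the ratio, 6 of the 8 were lower (24.6% of all probes) and 0 were higher (25.7% of all probes), and an unadjusted p under 0.05 gave the same 6 and 0. The median log2 ratio over the 8 probes was -1.24, against -0.01 over all probes. It moved to -0.73 with median centring, to -1.78 with a normexp offset of 0 and to -1.93 with the log ratio of Feature Extraction.

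The DNA motif through which Snail and Zeb proteins are known to act was searched in the RefSeq promoter windows of the assembly GRCm38.p6, as background for the values that follow. The letters were CACCTG and its reverse complement CAGGTG, counted as 1 motif on both strands, over the 250 bases before each annotated start. Of all 32851 windows, 17.2% held it. Of the factors, 4 of the 7 genes had a window (Snai1, Twist1, Twist2 and Zeb2), and Snai2, Snai3 and Zeb1 had no entry. The motif was in the 1 window of Snai1 and in none of the 6 windows of Twist1, Twist2 and Zeb2. Of 25 listed epithelial genes that these factors are known to repress, 17 had a window, and Cdh1 did not. Of these 17 genes 11 held the motif, in 12 of 23 windows (52.2%). Some windows of the same gene overlap and hold the same motifs. Of 24 listed mesenchymal genes 12 had a window, and the motif was in 0 of their 13 windows. Among the other lists described below, it was in 0 of 15 windows for partners and corepressors. For other EMT-linked factors it was in 0 of 12, for epithelial identity factors in 3 of 9, and for Snail and Twist protein turnover in 2 of 12. A match is a run of letters and not a measured binding site.

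The windows of 3 factors are shown first, followed by those of Crb3, Epcam and Lsr, 3 epithelial genes that were picked as examples after their values were seen. They are among 6 of the epithelial genes that hold the motif at more than 1 place in a window. The other 3 are Cldn7 and Ocln, each with a probe called higher, and Muc1, which was not called. Capitals mark CACCTG or CAGGTG, and each window ends at the base before the start. The Snai1 window is chr2:167537945-167538194 on the plus strand, and its motif begins 126 bases before the start. The windows of Twist1 (chr12:33957421-33957670) and Twist2 (chr1:91801211-91801460), both on the plus strand, have none. The Crb3 window shown (chr17:57061951-57062200, plus strand) has motifs beginning 118, 63 and 7 bases before the start. Another Crb3 window (chr17:57061981-57062230) overlaps it and holds the same motifs. The Epcam window (chr17:87635729-87635978, plus strand) has them at 187 and 19 bases, and the Lsr window (chr7:30973470-30973719, minus strand) at 249, 219, 151 and 69 bases.
Snai1: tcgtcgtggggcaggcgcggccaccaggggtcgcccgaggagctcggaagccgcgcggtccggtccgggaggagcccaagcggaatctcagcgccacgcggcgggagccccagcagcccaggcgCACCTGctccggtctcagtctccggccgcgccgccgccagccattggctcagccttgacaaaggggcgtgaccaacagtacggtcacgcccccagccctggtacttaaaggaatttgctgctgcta
Twist1: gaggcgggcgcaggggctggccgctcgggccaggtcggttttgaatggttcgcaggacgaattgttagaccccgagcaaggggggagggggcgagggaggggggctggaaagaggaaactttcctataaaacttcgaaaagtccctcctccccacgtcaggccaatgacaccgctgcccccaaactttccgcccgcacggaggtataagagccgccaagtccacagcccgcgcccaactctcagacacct
Twist2: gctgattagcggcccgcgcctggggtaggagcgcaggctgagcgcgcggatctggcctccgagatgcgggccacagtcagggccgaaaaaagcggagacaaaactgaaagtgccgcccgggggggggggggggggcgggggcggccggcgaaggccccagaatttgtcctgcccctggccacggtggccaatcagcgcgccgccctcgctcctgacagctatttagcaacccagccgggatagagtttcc
Crb3: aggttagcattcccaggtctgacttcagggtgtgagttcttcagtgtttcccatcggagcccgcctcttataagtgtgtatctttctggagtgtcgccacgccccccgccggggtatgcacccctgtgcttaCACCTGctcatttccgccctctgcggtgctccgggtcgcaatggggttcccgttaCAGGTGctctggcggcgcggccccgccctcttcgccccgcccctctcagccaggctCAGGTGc
Epcam: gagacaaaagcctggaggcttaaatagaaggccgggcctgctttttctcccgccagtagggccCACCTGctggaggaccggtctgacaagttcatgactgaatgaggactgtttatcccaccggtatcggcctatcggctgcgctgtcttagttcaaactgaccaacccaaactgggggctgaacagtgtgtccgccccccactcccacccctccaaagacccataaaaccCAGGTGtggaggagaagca
Lsr: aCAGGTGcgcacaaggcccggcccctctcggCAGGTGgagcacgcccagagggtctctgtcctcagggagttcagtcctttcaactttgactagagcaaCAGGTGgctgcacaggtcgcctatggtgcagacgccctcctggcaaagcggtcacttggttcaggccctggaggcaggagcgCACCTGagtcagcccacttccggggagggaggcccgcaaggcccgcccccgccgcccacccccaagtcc

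The 8 probes were first examined for signal. Each was well above background by the scanner software's flag in both channels on all 3 arrays, and none was saturated. Negative control spots, 314 on each array, gave a second measure of background that was chosen after seeing the data. Their median intensity was 72.6, 74.1 and 57.3 in Cy5 and 119, 121 and 91.8 in Cy3 on replicates 1, 2 and 3. Of the 8 probes, 6 exceeded the 95th percentile of these spots in both channels on every array. Snai3 did not exceed it in the reference channel on any array, and Twist2 exceeded it in the EpH4-PR channel on 2 of 3 arrays. Apart from Snai2 and Twist1, the probes read at most 3.05 times the median negative control in either channel.

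**Figure D1:**
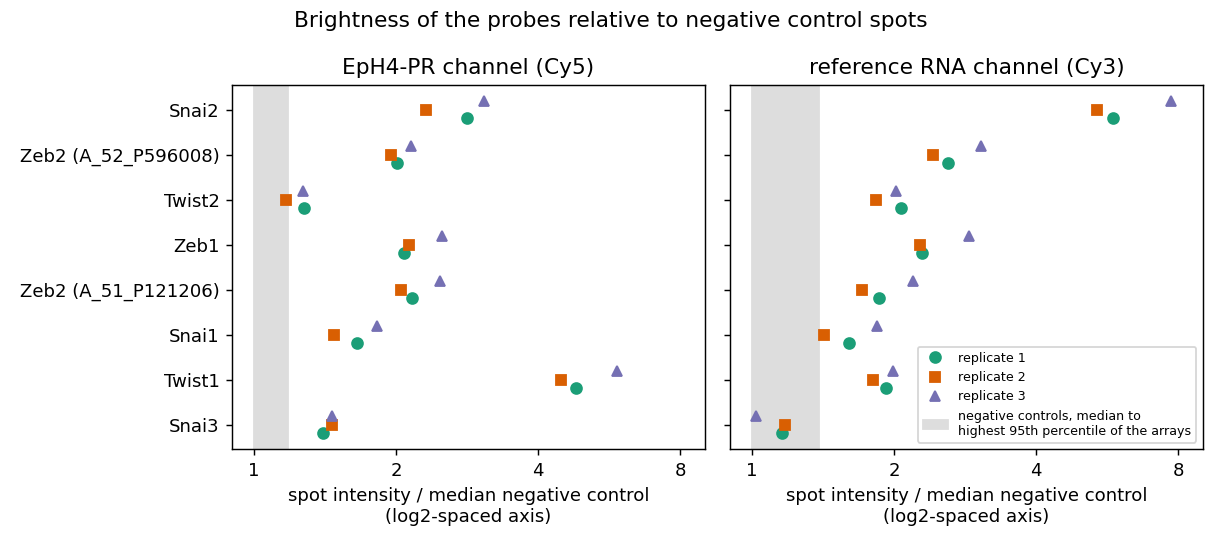
Mean spot intensity of the 8 EMT factor probes divided by the median negative control spot of the same array and channel, on a log2-spaced axis, for EpH4-PR RNA (Cy5, left) and reference RNA (Cy3, right). Each symbol is 1 array, and the grey band runs from the negative control median to the highest 95th percentile of the 3 arrays. Twist1 lies at 4.46 to 5.87 in Cy5 and 1.80 to 1.99 in Cy3, Snai2 lies further right in Cy3 than in Cy5, and Snai3 lies inside the band in Cy3.

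The Snail family came first. Snai2, also called Slug, is a repressor known from neural crest and from basal cells of the mammary gland. Its mean spot intensity in the EpH4-PR channel was 205, 171 and 176 on replicates 1, 2 and 3, and in the reference channel 697, 653 and 709. The log2 ratios after normalization were -2.89, -3.02 and -3.16. All 3 arrays were far below the reference. The mean log2 ratio was -3.02 ± 0.14 (SD, n = 3; adjusted p = 1.81e-05 by limma), an 8.13-fold lower level than in reference RNA. The intensities before normalization differ by less than 8.13-fold, and median centring in place of loess gave -2.06. The size of this ratio thus depends on the scaling. Among all probes, 0.257% had a ratio as low or lower. The EpH4-PR signal itself stayed 2.31 to 3.07 times the median negative control.

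Snai1, the founding repressor of Cdh1 in EMT, was lower by less. It read 120, 109 and 104 in Cy5 and 192, 172 and 169 in Cy3. The log2 ratios were -0.79, -0.67 and -1.08. All were below 0, and only replicate 3 passed 1 log2 unit. The mean was -0.85 ± 0.21 (SD, n = 3; adjusted p = 0.00107 by limma), or 1.80-fold, and Snai1 was not called. The EpH4-PR signal was 1.47 to 1.82 times the median negative control and the reference signal 1.42 to 1.84 times. The size of this ratio thus rests on signals close to background in both channels.

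Snai3, the least studied Snail gene, had intensities of 101, 108 and 83.6 in EpH4-PR RNA and 138, 143 and 93.5 in reference RNA. Its log2 ratios were -0.05, -0.12 and 0.27, which lie on both sides of 0. The mean was 0.03 ± 0.21 (SD, n = 3; adjusted p = 0.794 by limma), with a 95% interval from -0.19 to 0.25. Since the reference signal was within the range of negative controls on all arrays, this ratio compares a weak signal with one not separated from background.

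The Twist genes were split. Twist1, required for cranial and limb mesenchyme, read 350, 331 and 336 in Cy5 and 230, 219 and 183 in Cy3. Its log2 ratios after loess were -0.06, -0.05 and 0.06. The 3 arrays lay on both sides of 0, and the mean was -0.02 ± 0.07 (SD, n = 3; adjusted p = 0.808 by limma), with a 95% interval from -0.14 to 0.11. With median centring in place of loess, Twist1 was 0.80 above 0 on the log2 scale (adjusted p = 4.02e-06 by limma), still under 1 log2 unit. The EpH4-PR signal of Twist1 was clearly above background, at 4.46 to 5.87 times the median negative control.

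Twist2, or Dermo1, a factor of dermal and bone precursors, had intensities of 92.5, 86.9 and 72.7 in EpH4-PR RNA and 247, 222 and 186 in reference RNA. Its log2 ratios were -1.71, -1.60 and -1.67. All 3 were past 1 log2 unit with the smallest spread of the 8 probes. The mean was -1.66 ± 0.06 (SD, n = 3; adjusted p = 2.59e-05 by limma), a 3.16-fold lower level. As the EpH4-PR signal was 1.17 to 1.28 times the median negative control, the size of this ratio rests on a signal close to background.

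The Zeb genes encode repressors in which a homeodomain lies between clusters of zinc fingers, and both take part in mutual repression with microRNAs of epithelial cells. Zeb1 read 151, 158 and 143 in Cy5 and 273, 275 and 264 in Cy3. Its log2 ratios were -1.44, -1.44 and -1.69. The 3 arrays were all past 1 log2 unit, and the mean was -1.52 ± 0.14 (SD, n = 3; adjusted p = 6.87e-05 by limma), a 2.88-fold lower level. Median centring in place of loess reduced this to -0.87, below the limit of 1.

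Zeb2, a factor that also binds activated Smads, had 2 probes whose log2 ratios did not overlap between arrays; this difference was not tested. Probe A_52_P596008 had intensities of 146, 145 and 123 in EpH4-PR RNA and 311, 294 and 280.03 in reference RNA. Its log2 ratios were -1.74, -1.68 and -1.94, and the mean was -1.79 ± 0.14 (SD, n = 3; adjusted p = 4.54e-05 by limma), a 3.46-fold lower level. All 3 arrays were past 1 log2 unit. Median centring in place of loess gave -1.13 for this probe, so the size of its ratio depends on the scaling. Probe A_51_P121206 had intensities of 157, 152 and 142 in EpH4-PR RNA and 222, 208 and 202 in reference RNA. Its log2 ratios were -0.92, -0.83 and -1.15, and the mean was -0.97 ± 0.16 (SD, n = 3; adjusted p = 0.000369 by limma), a 1.95-fold lower level. Both probes were below the reference on all 3 arrays, and only the first was called. The second probe read 2.05 to 2.47 times the median negative control in EpH4-PR RNA and 1.71 to 2.20 times in reference RNA. Relative to these spots it was thus not lower in EpH4-PR RNA. Without replicate 2, the second probe was also called, at -1.03. The uncounted probe with the old name of Zeb2 (A_52_P587928) gave log2 ratios of -0.94, -0.91 and -0.57, mean -0.81 ± 0.20 (SD, n = 3; adjusted p = 0.00125 by limma), and exceeded the 95th percentile of negative controls on 2 of 3 arrays in each channel.

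**Figure D2:**
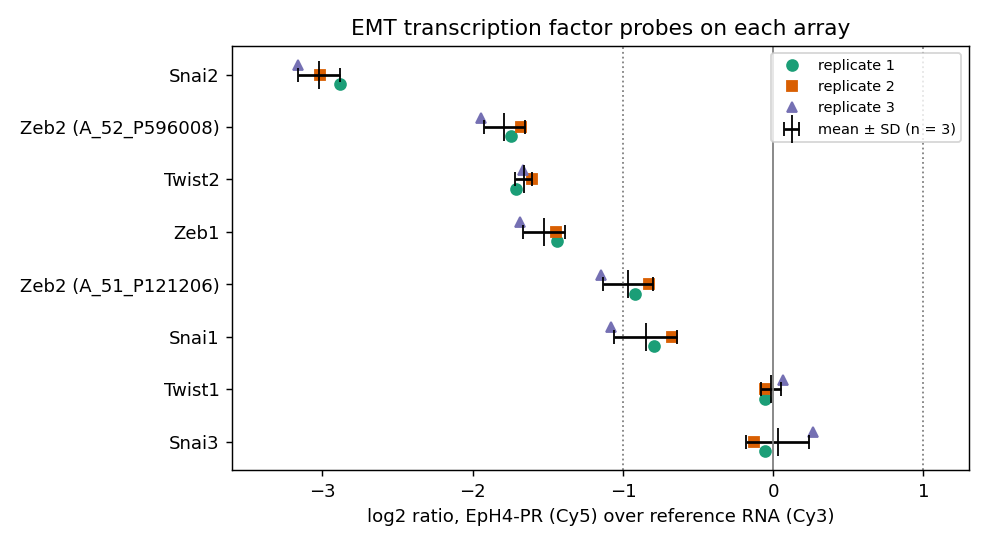
Log2 ratio of EpH4-PR (Cy5) over reference RNA (Cy3) for the 8 EMT factor probes on each of 3 arrays, with the mean ± SD (n = 3), ordered from lowest to highest. Dotted lines mark 1 log2 unit either way. Snai2 stands alone at -3.02, 3 probes lie between -1.79 and -1.52, 2 between -0.97 and -0.85, and Twist1 and Snai3 lie near 0.

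Ordered by these differences, not by level, the probes fell into 4 steps. Snai2 was lowest, and its arrays did not overlap with those of the next probe, 1.23 log2 units above. The order could not change under alternatives that kept the ratios (the filter on dim probes, the trend on intensity and the methods' t-test). Snai2 was also lowest under all 14 alternatives, but the later steps held under fewer. Twist2 came second in 3 of them, 0.68 log2 units above Snai2 with a normexp offset of 0, 0.64 with median centring and 0.26 with the log ratio of Feature Extraction, and in these 3 Snai1 was below the Zeb2 probe A_51_P121206. With the processing used here Zeb2 (A_52_P596008), Twist2 and Zeb1 followed, and in this order the arrays of neighbouring probes overlapped. The other Zeb2 probe and Snai1 overlapped with each other and lay 0.56 log2 units or more above Zeb1. Twist1 and Snai3 overlapped and lay 0.83 log2 units or more above Snai1. Replicate 3 gave the lowest log2 ratio of the 3 arrays for Snai1, Snai2, Zeb1 and both Zeb2 probes and the highest for Twist1 and Snai3.

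**Figure D3:**
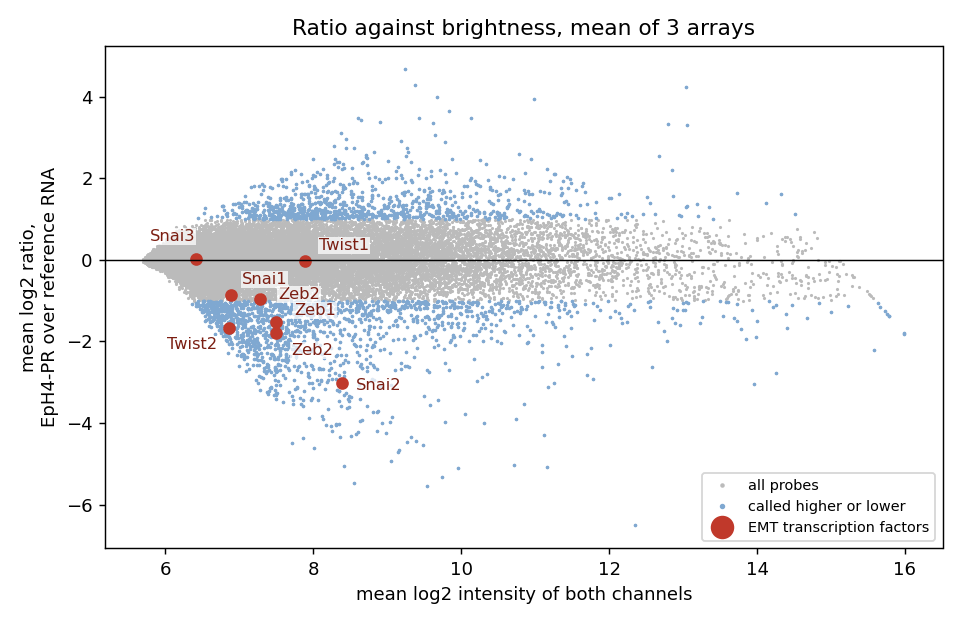
Mean log2 ratio (EpH4-PR against reference RNA) plotted against the mean log2 intensity of both channels for 41174 probes, averaged over 3 arrays. Blue points were called higher (932) or lower (1578), and red points are the 8 EMT factor probes. Of these, Snai2, Twist2, Zeb1 and 1 Zeb2 probe lie among the lower calls.

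For the 6 probes below the reference, the choice of processing moved the ratio by more than the spread between arrays. Over 14 alternatives, the log2 ratio of Snai2 ran from -3.65 to -2.06, that of Twist2 from -3.39 to -1.34, and that of Zeb2 (A_52_P596008) from -2.58 to -1.13, and all 3 were called lower each time. Zeb1 ran from -2.20 to -0.87 and was called in 13 of 14. Snai1 stayed below 0 in all 14, from -1.66 to -0.58, and was called in 2 of them. The second Zeb2 probe also stayed below 0, from -1.45 to -0.43, and was called in 3. Neither Twist1 (-0.05 to 0.80) nor Snai3 (-0.09 to 0.30) was called under any of the 14, and both changed sign among them. For the 6 lower probes, the ratio furthest from 0 came with the log ratio computed by Feature Extraction, and the one nearest to 0 with median centring or, for Twist2, with no background correction. The filter on dim probes, the trend on intensity and the methods' t-test could change the calls but not the ratios.

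**Figure D4:**
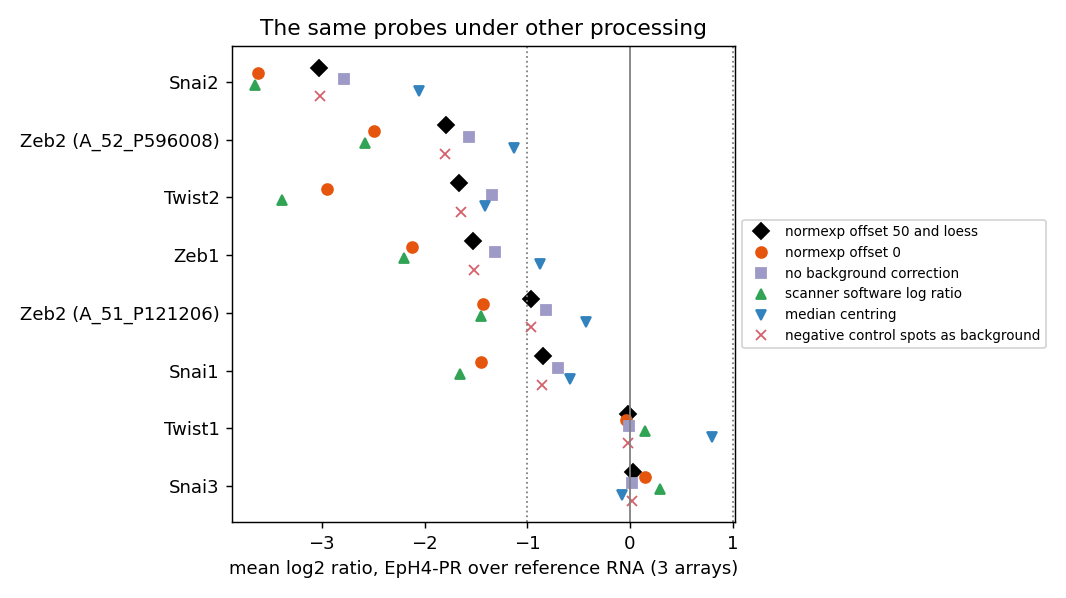
Mean log2 ratio over 3 arrays of the 8 EMT factor probes under the processing used here (black diamonds) and 5 alternatives. Dotted lines mark 1 log2 unit either way. Snai2, Twist2 and Zeb2 (A_52_P596008) lie past -1 under each of these, Zeb1 crosses -1 with median centring (-0.87), and Twist1 moves to 0.80 with median centring.

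Genes around the factors were read from lists, each described by its counts, to be set beside the 2.26% of all probes called higher and 3.83% called lower. Of 24 probes for partners and corepressors, 2 were called higher and 3 lower, with a median log2 ratio of 0.21. Tcf4, an E protein that pairs with Twist, was lower by 2 probes, at -2.09 ± 0.09 and -1.34 ± 0.07 (SD, n = 3), whereas another probe gave -0.03 ± 0.05. Tcf12, another E protein, was not called, at -0.71 ± 0.06 and 0.19 ± 0.14. Loxl2, a lysyl oxidase that interacts with Snai1, was lower at -1.48 ± 0.13, and its second probe, at -0.32 ± 0.13, was not well above background in EpH4-PR RNA on any array.

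The highest ratios of the same list were those of Ctbp2, Suz12 and Ajuba. Ctbp2, a corepressor that binds Zeb proteins, was higher by 1 probe at 1.20 ± 0.04, and its other probe gave 0.85 ± 0.21. Suz12, a Polycomb subunit, was higher by 1 probe at 1.15 ± 0.01, and its other probe gave 0.42 ± 0.06. Ajuba, a LIM protein that binds Snail, gave 0.89 ± 0.04 and was not called. With median centring, under which 17.1% of all probes were called higher and 1.72% lower, the list's counts became 12 higher and 1 lower.

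For proteins that act on the stability or location of Snail and Twist proteins, 0 of 24 probes were called in either direction, with 9 higher and 7 lower by the limma adjusted p alone and the same counts by an unadjusted p under 0.05. Over all probes 6.1% were called, and 25.7% were higher and 24.6% lower by the adjusted p alone, so these counts are near the background. Their log2 ratios ran from -0.64 ± 0.13 for 1 probe of Cops2, a signalosome subunit that stabilises Snail, to 0.52 ± 0.15 for 1 probe of Mdm2, a ubiquitin ligase. Gsk3b, the kinase that marks Snail for degradation, gave 0.45 ± 0.07 and 0.10 ± 0.12. Lats2, a Hippo pathway kinase, gave -0.57 ± 0.05, -0.53 ± 0.08, 0.04 ± 0.18 and 0.31 ± 0.34. The F-box protein gene Fbxl5 gave 0.44 ± 0.09, -0.42 ± 0.03 and -0.16 ± 0.24, and 1 more probe was not well above background in either channel. With median centring 6 of the 24 were called higher (17.1% of all probes), and 3 were with the log ratio of Feature Extraction (8.78% of all probes).

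Other transcription factors linked to EMT moved in both directions: of 26 probes, 4 were called higher and 8 lower, with a median of -0.36 (4 higher and 4 lower with median centring). Prrx2, a homeobox factor of mesenchyme, was lower at -2.84 ± 0.15. Hmga2, a chromatin protein that acts on Snai1 and Twist1, was lower by both probes, at -2.61 ± 0.04 and -1.26 ± 0.08. Foxc2, a forkhead factor, was lower at -1.60 ± 0.15. Its relative Foxc1 was higher at 1.48 ± 0.07, as was Sox4, an HMG box factor, at 1.29 ± 0.04. Sox9 was higher by 2 probes, at 1.06 ± 0.07 and 1.03 ± 0.004, while another gave 0.03 ± 0.14.

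Factors that maintain epithelial identity, several of which oppose Zeb1, showed 3 of 17 probes higher and 0 lower by limma, with a median of 0.45, and 0 were lower by an unadjusted p under 0.05 as well. Between 3 and 7 were higher over the alternatives. Counts of 7 came with a normexp offset of 0 (7.59% of all probes called higher) and Feature Extraction's log ratio (8.78%). Median centring gave 5 (17.1%). Grhl2, which represses Zeb1, was higher by 1 probe at 2.75 ± 0.18, and its other probes gave 0.16 ± 0.17 and 0.02 ± 0.25. Esrp1, a splicing regulator of epithelial isoforms, was higher at 1.93 ± 0.05, but its reference signal was below the 95th percentile of negative controls on every array. Gata3, a luminal factor of the mammary gland, was higher at 1.39 ± 0.07. Klf5 (0.27 ± 0.21 and 0.10 ± 0.32) and Ovol2 (0.68 ± 0.11 and 0.20 ± 0.38) were not called.

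Epithelial genes known as targets of repression by the EMT factors were mostly higher: 20 of 38 probes were called higher and 1 lower, with a median log2 ratio of 1.14. Cdh1 had intensities of 5052, 4225 and 4860 in EpH4-PR RNA and 146, 141 and 116 in reference RNA. The 3 log2 ratios were 4.30, 4.19 and 4.39, and the mean was 4.29 ± 0.10 (SD, n = 3), a 19.6-fold higher level. On replicates 1 and 2 the reference signal of Cdh1 was below the 95th percentile of negative controls (162 and 168). The size of this ratio thus rests on a reference signal close to background. Mal2, an apical transport protein, was higher at 4.69 ± 0.03, and Krt7, a keratin of simple epithelia, at 3.99 ± 0.08. Of the genes whose windows are printed above, Crb3, a polarity protein, was higher at 2.10 ± 0.27, Epcam, an adhesion molecule, at 1.26 ± 0.02, and Lsr, a tricellular junction protein, at 3.48 ± 0.08. The reference signal of Crb3 was below the 95th percentile of negative controls on all 3 arrays. The exception in this list was Krt19, another keratin, which was lower at -2.62 ± 0.18. Cldn1, a tight junction claudin (-0.69 ± 0.37 and -0.54 ± 0.47), and the mucin Muc1 (-0.71 ± 0.27 and -0.05 ± 0.14) were not called.

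Mesenchymal genes were lower by 25 of 46 probes and higher by 0 in limma's test, with a median of -1.33. By an unadjusted p under 0.05 with no limit on the ratio, 1 probe was higher and 38 were lower. With median centring 2 probes were called higher (17.1% of all probes). Of the 46 probes, 32 were well above background in EpH4-PR RNA on all 3 arrays. Vim, which encodes vimentin, had intensities of 1083, 924 and 917 in EpH4-PR RNA and 29941, 25986 and 29809 in reference RNA. Its log2 ratio after normalization was -6.51 ± 0.11 (SD, n = 3), a 91.2-fold lower level and the lowest of all probes, although the EpH4-PR signal was far above background. The intensities before normalization differ by less than 91.2-fold, so the size of this ratio depends on the scaling. A second Vim probe was not well above background in EpH4-PR RNA on any array. Col3a1, a fibrillar collagen, was lower at -5.10 ± 0.10 by 1 of its 3 probes, and Col1a1 at -5.03 ± 0.12 and -2.16 ± 0.15 by 2 of 3. Pdgfra, a receptor of mesenchymal cells, was lower by 1 probe at -3.34 ± 0.03, and its other probe gave -0.09 ± 0.17. Acta2, smooth muscle actin, differed between its 4 probes, from -2.01 ± 0.15 to 0.60 ± 0.11. The lowest Acta2 probe was well above background in EpH4-PR RNA on only 1 of 3 arrays. The highest Acta2 probe read 6064, 6353 and 6037 in EpH4-PR RNA. Its ratio was above 0 (adjusted p = 0.000882 by limma) but was not called. The protease gene Mmp14 gave -0.14 ± 0.09 and 0.00 ± 0.05.

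**Figure D5:**
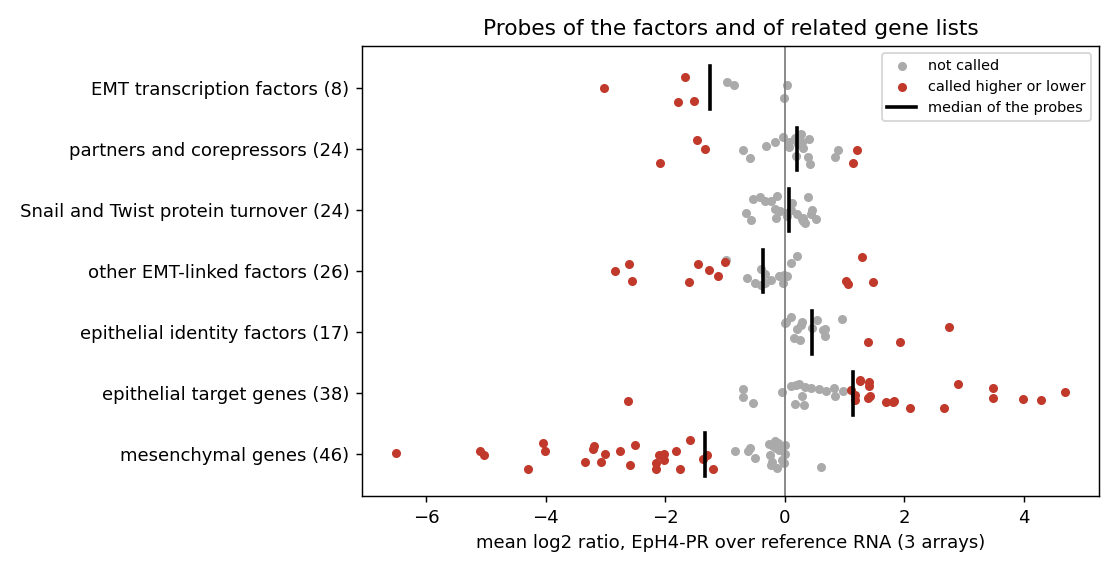
Mean log2 ratio against reference RNA (3 arrays of EpH4-PR) for each probe of the EMT factors and of 6 related lists, with the number of probes in brackets. Red points were called higher or lower, and the black bar is the median of the list. The EMT factors (median -1.24) and mesenchymal genes (-1.33) lie mostly left of 0, and epithelial target genes (1.14) mostly right.

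The label of the cells was set against markers of cell types. Of 6 probes for 5 epithelial markers, 5 were called higher and 1, Krt19, lower. Their summed intensity was 85679.6 to 101429 in EpH4-PR RNA against 11048 to 12068 in reference RNA. Summed intensities in this paragraph were taken before normalization, so the size of a difference between the channels is not that of the ratios. Of 15 fibroblast marker probes, 8 were lower and 0 higher by limma (13 and 0 by an unadjusted p under 0.05), with a summed intensity of 3015 to 3457 in EpH4-PR RNA against 18391 to 20224 in reference RNA, and 3 of them were not well above background in EpH4-PR RNA on any array. Of 9 blood cell marker probes 2, both for Ptprc, were lower by limma (4 lower and 0 higher by an unadjusted p under 0.05). Of 5 endothelial probes none was called in either direction by limma, with 1 higher and 1 lower by an unadjusted p under 0.05. In EpH4-PR RNA, 3 of the 9 and 3 of the 5 were not well above background on any array. Fibroblast marker signal was thus higher in the reference channel, and the part of this in the ratios of the EMT factors was not tested. Fewer cells of a type and less RNA per cell cannot be told apart in these bulk samples. The 2 probes for Pgr, the gene of the transfected receptor, gave log2 ratios of -0.11 ± 0.22 and -0.19 ± 0.08, each well above background in EpH4-PR RNA on 1 of 3 arrays, and whether they lie in the transfected sequence was not examined.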

How the data were processed

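RNA of EpH4-PR cells on 3 arrays was read from the scanner output that the authors deposited, made with Agilent Feature Extraction 8.1.1.1 per the file headers. It gives for each of 43790 spots the mean and median intensity and the local background intensity in both channels, a log10 ratio of Cy5 over Cy3, and flags for outliers, saturation and signal over background. The authors deposited the intensity values before background correction and normalization, and the log10 ratio after those of the scanner software. A deposited table of fold changes was not used: it holds the authors' own comparison of sides that its header does not name (a log10 ratio and its error, a linear ratio, a fold change, a p-value, a deviation score and intensities).

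Mean intensities were corrected with normexp (offset 50) and normalized within arrays by loess. Control spots and outlier spots (150, 18 and 3) were left out, and spots of a probe were averaged. An offset pulls ratios of dim spots toward 0, and loess removes a trend of ratio with brightness. Each log2 ratio was compared with 0 by lmFit and eBayes (R 4.3.3, limma 3.58.1), calls needing both an adjusted p below 0.05 and an absolute log2 ratio of 1 or more. Figures were drawn with Python 3.11.15 and matplotlib 3.10.9. The fit was tested on simulated data. Precision is limited by the number of arrays. Over the 25721 probes above background in both channels, the SD between arrays had a median of 0.09 log2 units, and 29599 to 30937 probes passed that flag in Cy5. Pearson correlations of log2 ratios between arrays, across probes that are not independent, were 0.923 to 0.952.

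Current symbols were taken from RefSeq's gene table (GRCm38.p6) by accession, found for 21445 of 23705 probes with such an accession. Different probes for 1 gene were not averaged. The text names every member, Cdh1, Vim and Pgr, and of each list the 3 genes with the highest and the 3 with the lowest ratios among those well above background in EpH4-PR RNA on all arrays, or every such gene where a list has under 7. Crb3, Lsr, Cldn7 and Ocln lie outside this rule. Genes listed without a probe were Gsk3a, Grhl3 and Hbb-b1. The members, lists and tests were chosen with earlier results of these data known. Each slide held 1 array, so slide could not be used as a block. Alternatives covered background correction, the scanner software's log ratio, median centring, outlier spots, median spot intensity, a filter on dim probes, leaving out each array, the methods' t-test, eBayes with a trend on intensity, and, added after seeing the data, negative control spots as background.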

Additional observations from a re-analysis of the deposited data

How the results depend on the processing

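Of the 8 member probes, 4 were called lower and 0 higher; over 14 alternatives the lower count ran from 3 to 6 and the higher count was always 0. Snai1 and the Zeb2 probe A_51_P121206 passed 1 log2 unit with a normexp offset of 0 (-1.45 and -1.43) and with Feature Extraction's log ratio (-1.66 and -1.45), as did the uncounted probe A_52_P587928 (-1.77 and -2.29). Zeb1 fell short of it with median centring (-0.87). Leaving out 1 array gave -1.03 to -0.87 for Zeb2 A_51_P121206, -0.089 to 0.11 for Snai3 and -0.055 to 0.0047 for Twist1. Snai3 also changed sign with median centring (-0.078) and with the median spot signal (-0.023), and Twist1 with Feature Extraction's log ratio (0.15) and with median centring (0.80). The cause of these changes was not tested. Over all probes, 932 were called higher and 1578 lower (37.1% higher), against 3125 and 3905 (44.5%) with offset 0, 3616 and 3887 (48.2%) with Feature Extraction's log ratio, and 7031 and 708 (90.9%) with median centring. Probes near the negative controls limit what the ratios can show. Among the factors, Snai3 and Twist2 did not exceed their 95th percentile in both channels on every array. Snai1 did, but read at most 1.84 times their median in either channel. The fit with negative control spots as background, chosen after seeing the data, changed no member's call. Each ratio pairs the EpH4-PR and reference channels of 1 array. No pairing between groups of arrays was possible because all arrays belong to 1 group.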
